A study of Mus musculus with 5 samples.

Results

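Imprinted growth genes are the 10 targets Peg10, Sgce, Peg3, Plagl1, Igf2, Mest, Dlk1, Cdkn1c, Grb10 and Igf2r, taken by name from the 19346 gene targets of a spatial expression table of the embryonic mouse knee. All 10 were present in the table. The list was drawn up when it was known that Peg10 had passed a test of genotype in the inter-joint space, so the genotype values in that region type are given as a description, with no test. Which other earlier values led to the list is not recorded. Tests below that use inter-joint space regions share values with that earlier test, so their calls of Peg10 are not separate from the choice of the list.

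In an imprinted gene the copy inherited from a single parent is the one mainly read, and the other copy is silenced by marks laid down in the germ line. Several imprinted genes act on the growth of the embryo and placenta, and many paternally expressed ones favour growth while several maternally expressed ones restrain it. Peg10, Sgce, Peg3, Plagl1, Igf2, Mest and Dlk1 are read mainly from the paternal copy, and Cdkn1c, Igf2r and, outside the nervous system, Grb10 from the maternal copy. The probes used here do not tell the parental copies apart.

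Control animals carried Prrx1-Cre alone, a recombinase driver active in limb bud mesenchyme, and gain-of-function (GOF) animals carried Prrx1-Cre with a Pdgfra GOF allele, an activated form of a receptor for platelet-derived growth factor. Knees were taken at E14.5 (days of embryonic development) from 2 animals of each genotype, which the labels place in 1 batch, and both genotypes shared the driver. Expression was read by GeoMx digital spatial profiling, in which barcoded probes are hybridised to a section and the barcodes of a chosen region are released by light and sequenced. Sox9 protein and DNA were stained to guide the choice of regions, so genes that follow Sox9 could differ between region types through the choice itself. The controls gave 46 and 40 regions and the GOF animals 47 and 46.

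The region types come from tags that no label defines. Every animal gave between 7 and 19 regions each of border-zone cartilage, of inter-joint perichondrium and of inter-joint space, and the last has an added tag for an interzone low in Sox9. Fusion, whose tag adds a Sox9-high interzone, occurs in GOF animals only, with 9 regions in replicate 1 and 8 in replicate 2. A plain interzone tag was on every inter-joint space region, and on 6 of these 9 and 5 of these 8 fusion regions. It was also on 2, 3 and 2 perichondrium regions of control replicates 1 and 2 and GOF replicate 1. Region types were not split by this tag. Each animal also gave 1 cartilage and 1 mesenchyme region with a control tag, called reference cartilage and reference mesenchyme below to keep them apart from the control genotype.

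A region held between 55470 and 617053 recovered counts, and the median was 217175. Background, read by a negative probe, had a median value of 2.81, and the 10 genes had median values between 4.20 times that of the negative probe for Sgce and 397 times for Igf2. GOF replicate 2 had the lowest median total count of the 4 animals, 176310, and the lowest median negative probe, 2.29, against 2.76 to 3.06 in the others. The chondrocyte marker list, of which all 6 genes were measured, summed to between 3474 and 4544 in border-zone cartilage, between 1007 and 2005 in inter-joint perichondrium and between 625 and 879 in inter-joint space. The joint interzone list ran the other way, with sums between 141.2 and 167.9 in border-zone cartilage and between 344 and 824 in inter-joint space. Values are compared for each gene across regions and never between genes, since probes differ in efficiency.

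Sgce and Peg10 are immediate neighbours in the genome. In the RefSeq annotation of GRCm38.p6, Sgce spans chr6:4674350-4747204 and Peg10 spans chr6:4747306-4760517, with 0.101 kb between the annotated ends. Mest lies at chr6:30733506-30748466 and Dlk1 at chr12:109452485-109463336. The other genes are Peg3 at chr7:6703892-6730462, Igf2 at chr7:142650768-142666816, Cdkn1c at chr7:143458339-143461059, Plagl1 at chr10:13090832-13131694, Grb10 at chr11:11930499-12037428 and Igf2r at chr17:12682406-12769706.

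RefSeq promoter windows of 300 bases, from 250 bases before to 50 bases after a start, were given for 7 of the 10 genes, 13 windows in all, and are on GRCm38.p6. Windows of Mest (chr6:30737800-30738099, plus strand) and Dlk1 (chr12:109452573-109452872, plus strand) are shown because these genes had the closest pattern over regions, with each CpG in capitals. The window of Peg3 (chr7:6730370-6730669, minus strand) is shown because it alone of the 13 holds GGGGCCCC, letters bound by the zinc-finger protein that Plagl1 encodes, and these are in capitals.
Mest: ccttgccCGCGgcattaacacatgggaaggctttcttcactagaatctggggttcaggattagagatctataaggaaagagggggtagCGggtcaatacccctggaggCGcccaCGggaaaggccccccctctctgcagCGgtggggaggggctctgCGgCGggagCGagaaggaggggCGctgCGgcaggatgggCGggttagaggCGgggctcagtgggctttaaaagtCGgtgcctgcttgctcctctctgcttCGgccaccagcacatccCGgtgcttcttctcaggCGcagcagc
Dlk1: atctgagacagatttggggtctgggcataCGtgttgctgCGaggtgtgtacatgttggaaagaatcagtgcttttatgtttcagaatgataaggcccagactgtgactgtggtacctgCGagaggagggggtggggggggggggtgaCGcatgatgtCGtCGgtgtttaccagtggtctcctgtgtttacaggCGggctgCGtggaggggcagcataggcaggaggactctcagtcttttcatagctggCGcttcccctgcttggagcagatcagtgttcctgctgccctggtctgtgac
Peg3: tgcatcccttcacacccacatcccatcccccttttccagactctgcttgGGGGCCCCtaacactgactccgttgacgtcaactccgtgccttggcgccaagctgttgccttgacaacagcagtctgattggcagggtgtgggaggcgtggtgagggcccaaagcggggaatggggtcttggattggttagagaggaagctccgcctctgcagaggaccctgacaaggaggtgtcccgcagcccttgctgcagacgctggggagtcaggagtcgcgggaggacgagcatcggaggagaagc
The Mest window shown held 17 CpGs, the Dlk1 window 9 and the Peg3 window 13, against a median of 7 over all 32851 windows. For Mest the window was picked for its CpG count, and its other windows held 17 and 8. GGGGCCCC was the only motif searched and reads the same on both strands. It lies at bases 50 to 57 of the Peg3 window and is present in 1.08% of all windows. Among these genes the highest CpG counts were in a window of Grb10, with 45, and the window of Igf2r, with 34. The other window of Grb10 held 9. A match is a description of the letters and not of binding.

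**Figure D1:**
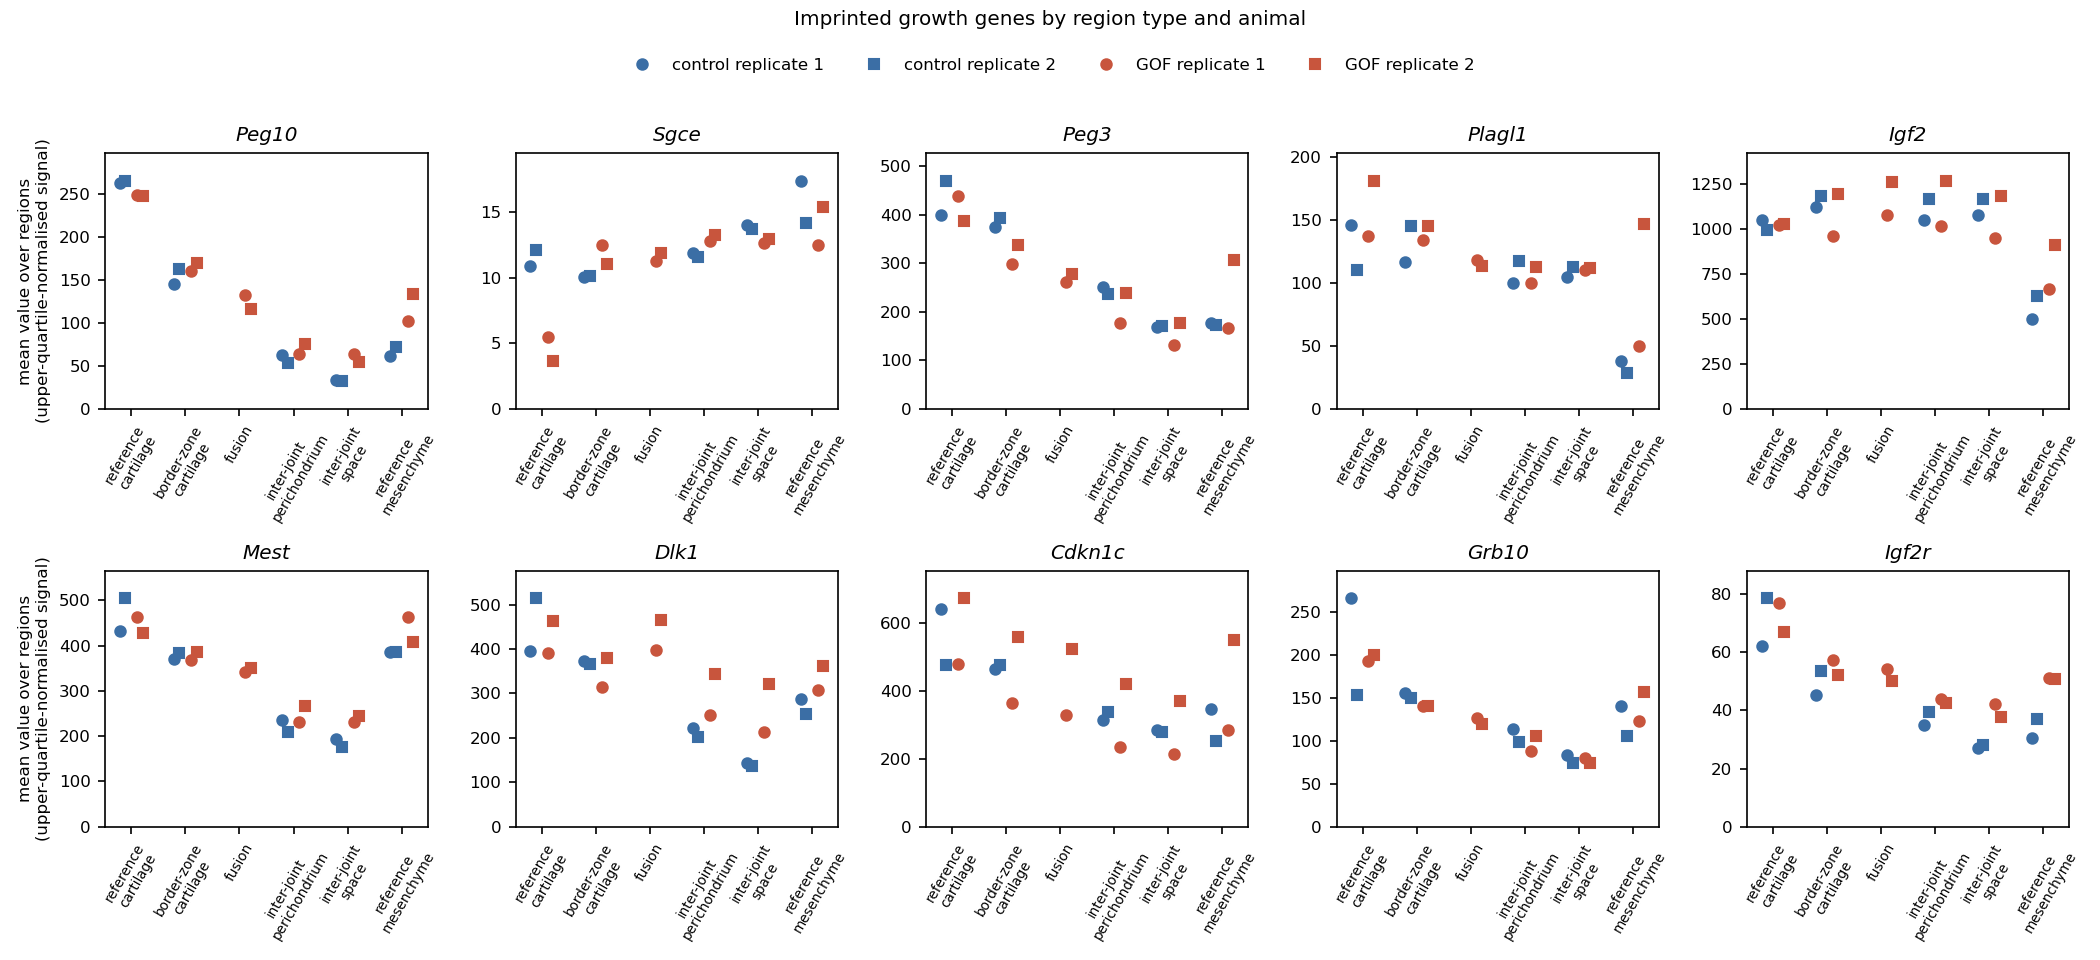
Mean upper-quartile-normalised signal of each gene over the regions of an animal (y axis, linear, from 0, own scale per gene) by region type (x axis), with control animals in blue, GOF animals in red, replicate 1 as circles and replicate 2 as squares. Peg10 runs from 32.3 to 33.3 in control inter-joint space to 248 to 266 in reference cartilage, Igf2 stays between 952 and 1269 in all joint region types, and Sgce, the neighbour of Peg10, does not follow it.

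The first comparison asks how the genes differ between region types of the control knee. Levels in control inter-joint space were lower than in border-zone cartilage for 6 of the 10 genes: Peg10, Dlk1, Peg3, Mest, Grb10 and Igf2r. Cdkn1c, Plagl1, Igf2 and Sgce did not pass the test. With the single reference regions left out of the fit, 8 of the 10 were called, where 1438 of all 19346 targets were called. Over all targets, 1.3% were called in either direction and 0.548% were called lower (limma on means per animal and region type with Benjamini-Hochberg adjustment over all targets, called at an adjusted p below 0.05). The median log2 difference of the 10 genes was -0.89, and that of all targets 0.03. All 10 genes had a median of at least 2 times the negative probe, as did 9985 of the targets. Differences of targets near background are understated, so all targets are not a like set for the 10 genes, here and below. Shares among the 9985 alone are not given. The control space regions used here also entered the comparison in which Peg10 was first noticed, so the call of Peg10 is not independent of the choice of the list.

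Peg10, a gene derived from a retrotransposon and needed for the placenta in mice, had mean values of 145.5 and 162.6 in the border-zone cartilage of control replicates 1 and 2, of 62.4 and 53 in their inter-joint perichondrium and of 33.3 and 32.3 in their inter-joint space. The animals of a region type lay close to each other, and the types did not overlap. In single regions, the 9 inter-joint space regions of replicate 1 ranged from 26.1 to 49.7 around a median of 29.4, and the 16 border-zone cartilage regions from 73.7 to 226 around 148.3. All 9 space regions lay below the lowest cartilage region of the same animal, in both control animals. Peg10 was 4.47-fold lower in inter-joint space than in border-zone cartilage on the log2(value + 1) scale, with a log2 difference of -2.16 ± 0.16 (SE) and a limma adjusted p of 1.71e-07. It was also lower in inter-joint perichondrium than in border-zone cartilage, by 1.41 ± 0.16 (SE) on that scale, with a limma adjusted p of 0.000364. Inter-joint space against perichondrium gave a log2 difference of -0.75 that did not pass (adjusted p = 0.302).

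Sgce encodes epsilon-sarcoglycan, a membrane protein of the dystrophin-associated complex. Its means in control replicates 1 and 2 were 10.0 and 10.1 in border-zone cartilage, 11.9 and 11.6 in perichondrium and 14.05 and 13.73 in inter-joint space. The order was thus the reverse of that of Peg10, but the log2 difference of 0.46 ± 0.21 (SE) between space and cartilage did not pass the test (adjusted p = 0.952). Sgce was close to background, and in 2 regions it was not above the negative probe of the same region, so a difference of its true level would be understated. Fewer cells that express a gene and less RNA of it per cell cannot be told apart in such regions.

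**Figure D2:**
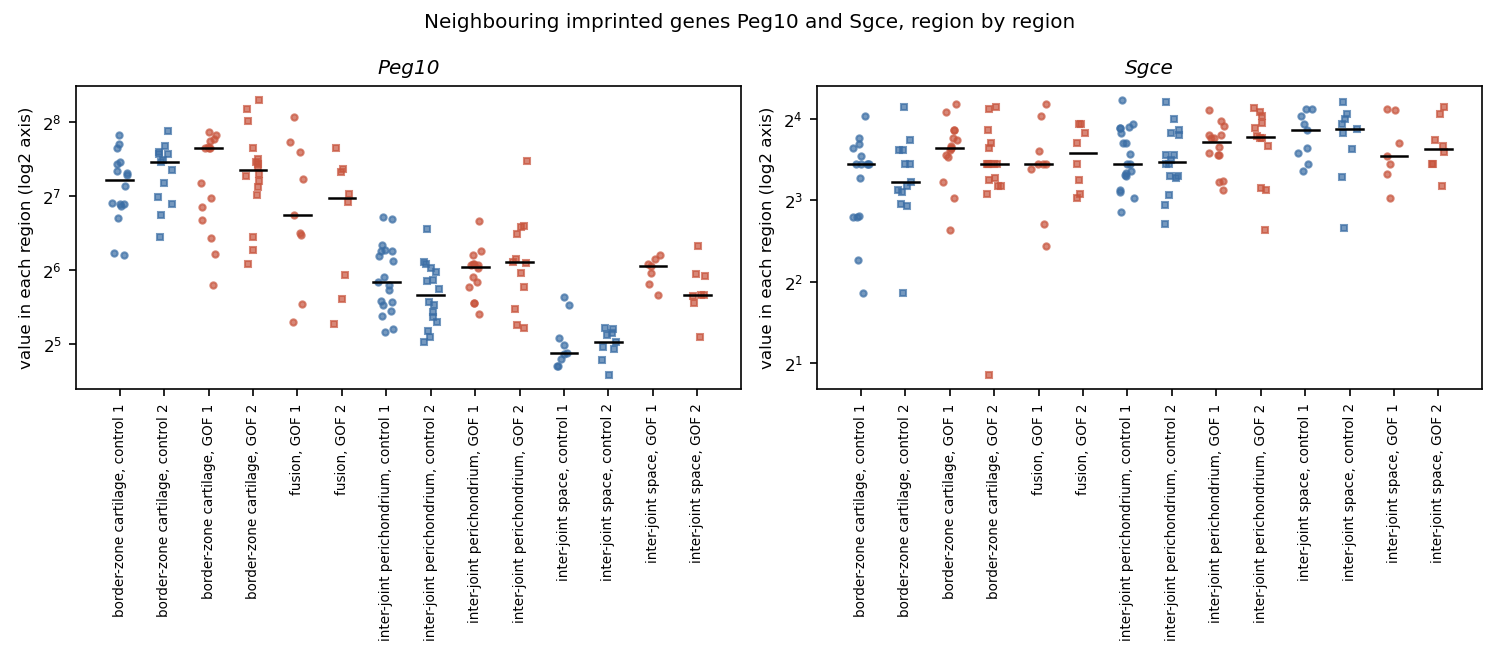
Value of Peg10 (left) and Sgce (right) in each joint region (y axis, log2 scale, own range for each gene) by region type and animal (x axis), with control animals in blue, GOF animals in red and black lines at the median. Peg10 in control inter-joint space lies below every border-zone cartilage region of the same animal, whereas the Sgce values of all columns overlap.

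Dlk1, a membrane protein of the Notch ligand family that is cleaved from the cell surface, had means of 374 and 367 in the border-zone cartilage of control replicates 1 and 2, of 222 and 201 in perichondrium and of 143.05 and 137.3 in inter-joint space. The spread between the 2 animals was small beside the steps between region types. It was 2.52-fold lower in space than in cartilage (log2 difference -1.33 ± 0.20 SE, limma adjusted p = 0.000412). The step from cartilage to perichondrium, -0.78, did not pass (adjusted p = 0.184).

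Mest, which encodes a protein of the alpha/beta hydrolase fold, had control means of 371 and 384 in border-zone cartilage, 236 and 210 in perichondrium and 194.7 and 177.01 in space. It was lower than in cartilage both in inter-joint space, 2.01-fold (log2 difference -1.004 ± 0.15 SE, limma adjusted p = 0.000449), and in perichondrium, 1.71-fold (-0.78 ± 0.15 SE, adjusted p = 0.0323). Peg10 and Mest were the 2 genes of the 10 that limma called in control perichondrium, where 0.186% of all targets were called in either direction and 0.093% were called lower. The log2 difference was below 0 for 9 of the 10 genes there, and edgeR called 3 and DESeq2 called 4.

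Peg3 and Plagl1 encode zinc-finger proteins that bind DNA. Peg3 had control means of 374 and 392 in cartilage, 250 and 236 in perichondrium and 168.3 and 171.4 in space, and was 2.27-fold lower in space than in cartilage (log2 difference -1.18 ± 0.22 SE, limma adjusted p = 0.00376). All 9 space regions of each control animal lay below its lowest cartilage region. Plagl1 had means of 116.3 and 145.3 in cartilage and of 104.8 and 112.6 in space, so the spread between animals in cartilage was larger than the difference from space. Within control replicates 1 and 2 it was lower in space, with log2 differences of -0.13 and -0.36. The fitted log2 difference of Plagl1 was -0.25 ± 0.30 (SE).

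The insulin-like growth factor (IGF) axis was represented by a ligand and 2 proteins that limit its action. Igf2, the ligand, had control means of 1122 and 1181 in border-zone cartilage, 1050 and 1165 in perichondrium and 1079 and 1169 in inter-joint space, and these ranges overlapped. The log2 difference between space and cartilage was -0.03, with a 95% interval of half-width 0.41. Igf2r, the receptor that takes IGF2 into the cell for breakdown, had means of 45.4 and 53.5 in cartilage and 26.9 and 28.2 in space, 1.79-fold lower (log2 difference -0.84 ± 0.16 SE, limma adjusted p = 0.00538). Grb10, an adaptor that binds insulin and IGF receptors and restrains their signalling, had means of 155.98 and 149.4 in cartilage and 83.3 and 73.7 in space, 1.92-fold lower (-0.94 ± 0.20 SE, adjusted p = 0.0150). The ligand and its limiting proteins thus did not show the same pattern over region types, although the difference between their patterns was not tested.

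Cdkn1c, an inhibitor of cyclin-dependent kinases that slows the cell cycle, had control means of 465 and 476 in cartilage, 315 and 338 in perichondrium and 285 and 279 in space. The control animals did not overlap between cartilage and space, but the log2 difference of -0.72 ± 0.31 (SE) did not pass (adjusted p = 0.800). The fit takes 1 spread per gene over all animals and region types, the single reference regions included. In Cdkn1c the GOF animals differed from each other more than the controls did, and the part of this in the missed call was not tested.

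Leaving out either control animal moved these counts. Without control replicate 1 or without control replicate 2, Peg10 was the 1 gene still called in control inter-joint space against cartilage, and neither Peg10 nor Mest was called in control perichondrium. Without either GOF animal, Grb10 and Igf2r were no longer called in control space against cartilage, with limma adjusted p-values between 0.064 and 0.187, and Mest was no longer called in control perichondrium (adjusted p = 0.0804 and 0.0819). The directions held in all of these. In control inter-joint space against perichondrium limma called 0 of the 10 genes, where 0% of all targets were called. At an unadjusted p below 0.05, 5 of the 10 passed there, and edgeR called 1 and DESeq2 called 2, with Peg10 in both.

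**Figure D3:**
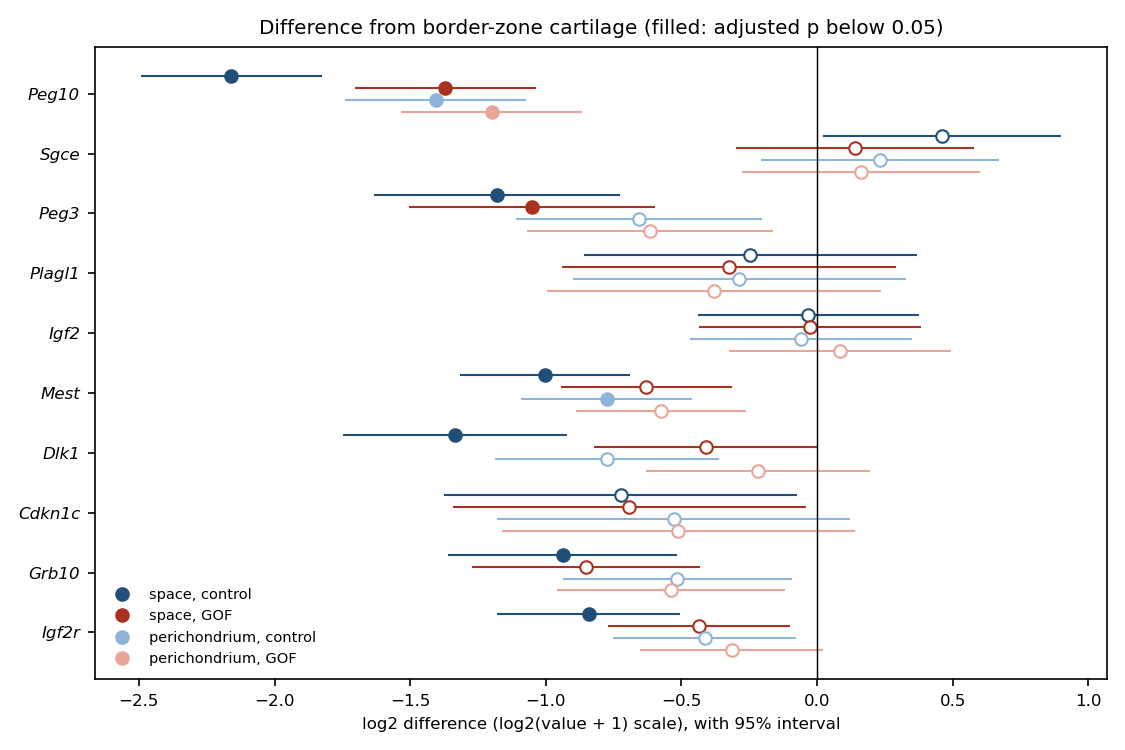
Log2 difference of inter-joint space (dark) and inter-joint perichondrium (pale) from border-zone cartilage (x axis, log2(value + 1) scale, limma) in control (blue) and GOF (red) animals for each gene (y axis). Bars are 95% intervals and filled points have an adjusted p below 0.05; Peg10 is filled in all 4 comparisons and lies farthest from 0, at -2.16 in control space.

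The same comparison in GOF animals gave 2 of 10 genes lower in inter-joint space than in border-zone cartilage, Peg10 and Peg3, where 0.501% of all targets were called in either direction, 0.32% were called lower and 0.181% higher. The median log2 difference of the 10 genes was -0.53, and that of all targets 0.04. Peg10 had means of 160 and 170 in the cartilage of GOF replicates 1 and 2, 63.9 and 75.4 in perichondrium and 63.9 and 54.4 in space. In GOF replicate 1 the 7 space regions ranged from 50.8 to 73.6, of which 1 lay below the lowest cartilage region, and in replicate 2 this held for 7 of 8 space regions. Peg10 was 2.59-fold lower in space (log2 difference -1.37 ± 0.16 SE, limma adjusted p = 8.03e-05) and 2.30-fold lower in perichondrium (-1.20 ± 0.16 SE, adjusted p = 0.00390) than in cartilage. It was the single gene of the 10 called in GOF perichondrium against cartilage, where 0.0103% of all targets were called.

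Peg3 had means of 298 and 338 in GOF cartilage and of 131.1 and 176.95 in GOF space, 2.07-fold lower (log2 difference -1.05 ± 0.22 SE, limma adjusted p = 0.0245). Mest and Grb10 were at -0.63 and -0.85 in this comparison and just missed the threshold, with adjusted p-values of 0.0756 and 0.0712. Both were called by edgeR on recovered counts (adjusted p = 0.0294 and 0.00271). Dlk1 had means of 315 and 380 in cartilage and 214 and 321 in space, so that the animals overlapped between the types. Within each animal it was lower in space, with log2 differences of -0.56 and -0.26 in GOF replicates 1 and 2. The fitted difference of -0.41 did not pass. Without GOF replicate 2, Peg10 was not called in GOF space (adjusted p = 0.104). Peg3 was not called when any 1 of the 4 animals was left out (adjusted p between 0.0675 and 0.194), and neither was Peg10 in GOF perichondrium (between 0.0728 and 0.760).

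In inter-joint space against perichondrium of GOF animals limma called 0 of the 10 genes, where 0% of all targets were called, and 0 of the 10 passed at an unadjusted p below 0.05 or by edgeR or DESeq2. Peg10 was at -0.17 ± 0.16 (SE) there, with means of 63.9 and 54.4 in space and of 63.9 and 75.4 in perichondrium. The difference between the genotype effects in perichondrium and in cartilage was tested as well, and again 0 of the 10 passed by limma, adjusted or not, or by edgeR or DESeq2, where 0% of all targets were called by limma.

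The second comparison sets GOF against control animals within a region type. In border-zone cartilage limma called 0 of the 10 genes, where 0.00517% of all targets were called, and 0 passed at an unadjusted p below 0.05 or by edgeR or DESeq2. The log2 differences lay between -0.28 for Peg3 and 0.21 for Sgce, and Peg10 was at 0.04 with a 95% interval of half-width 0.34. In inter-joint perichondrium limma again called 0 of 10, where 0.0155% of all targets were called, and so did edgeR and DESeq2, with 1 gene, Dlk1, at an unadjusted p below 0.05. Dlk1 had the highest difference there, 0.50 ± 0.20 (SE), with means of 252 and 344 in GOF animals and 222 and 201 in controls, which did not overlap. An exact two-sided permutation test of 2 animals against 2 cannot give a p below 0.333. On simulated data the same limma fit called 17 of 100 targets changed 2-fold in perichondrium, so a count of 0 does not show equal levels.

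In inter-joint space the genotype values are a description. Peg10 had means of 63.9 and 54.4 in GOF animals and of 33.3 and 32.3 in controls, a log2 difference of 0.83 ± 0.16 (SE). Dlk1 had means of 214 and 321 in GOF animals and of 143.05 and 137.3 in controls, a difference of 0.86 ± 0.20 (SE). The GOF animals lay above the control animals in both genes, and this held also for Igf2r, with 42.4 and 37.7 against 26.9 and 28.2, and for Mest, with 230 and 245 against 194.7 and 177.01. Igf2r differed by 0.54 and Mest by 0.36. The other genes lay between -0.15 for Peg3 and 0.01 for Plagl1, and Sgce was at -0.11. The median of the 10 was -0.01 and that of all targets -0.04, and without GOF replicate 1 the median of the 10 was 0.23. The sign of this median is not stable, since it was above 0 in 8 of 13 alternatives.

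Some cell type markers also differed between the genotypes in inter-joint space. The chondrocyte list summed to 697 and 879 in GOF inter-joint space and to 680 and 625 in control space, and the joint interzone list to 344 and 411 against 769 and 824. Gdf5, which marks the joint interzone, had means of 17.5 and 26.3 against 80.4 and 69.95, and Col2a1, the main cartilage collagen, 528 and 669 against 503 and 469. Acan, from the same chondrocyte list as Col2a1, had 40.9 and 61.8 against 54.6 and 51.1, so the genotypes overlapped in it. The endothelial list summed to 49.97 and 52.2 in GOF space against 39.8 and 39.4 in control space, and the erythroid list, of which 4 of 6 genes were measured, to 120.04 and 234.9 against 106.75 and 58.8. Both lists were higher in both GOF animals than in either control. The 10 genes and these markers were thus measured in space regions whose marker sums differed between the genotypes, and the part of this in the values of the 10 genes was not tested.

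**Figure D4:**
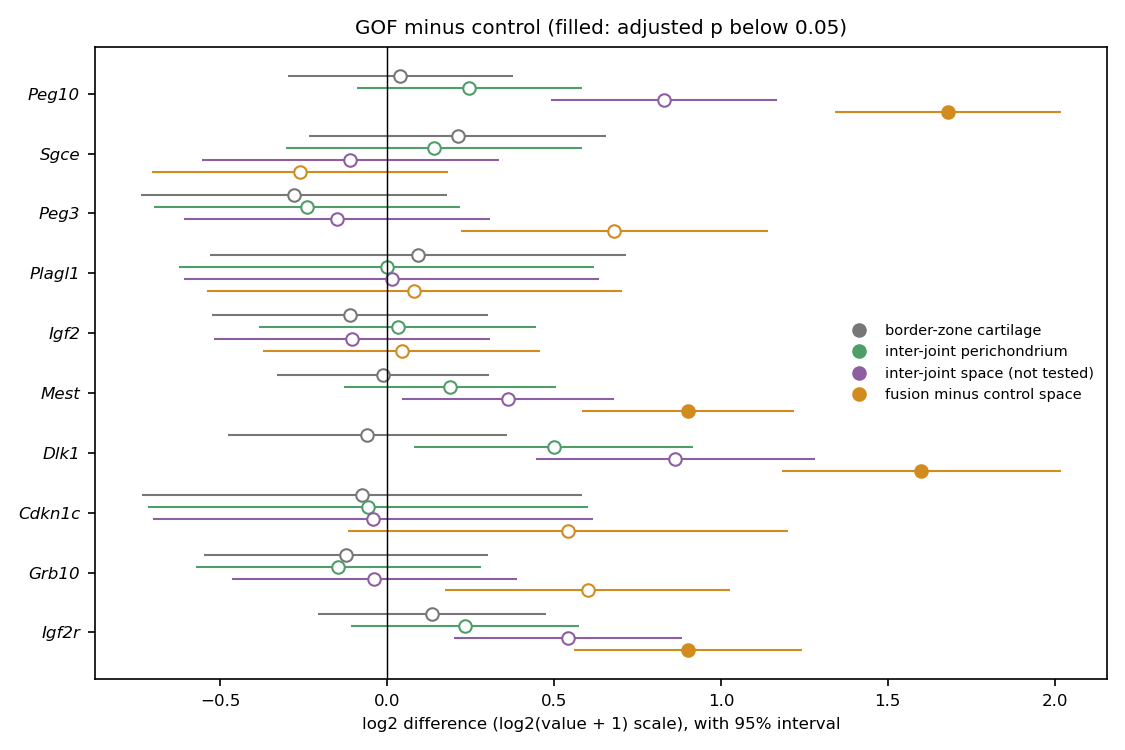
Log2 difference of GOF from control animals (x axis, log2(value + 1) scale, limma, bars are 95% intervals) within the cartilage, perichondrium and space region types, and of fusion from control inter-joint space, for each gene (y axis). Filled points have an adjusted p below 0.05, and inter-joint space was not tested; the values of Dlk1, Peg10, Igf2r and Mest are highest in the comparison of fusion with control space, at 1.60, 1.68, 0.90 and 0.90.

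The third comparison concerns fusion, the Sox9-high interzone regions of the GOF knee. Against control inter-joint space, 4 of the 10 genes were higher in fusion, Peg10, Dlk1, Igf2r and Mest, where 0.729% of all targets were called in either direction and 0.408% were called higher. The median log2 difference of the 10 was 0.64, and that of all targets -0.04. This comparison differs in both genotype and region type, and it shares the control space regions with the comparison of control space with cartilage and with the one in which Peg10 was first noticed, so these do not stand as separate evidence.

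Peg10 had fusion means of 132.8 and 115.8 in GOF replicates 1 and 2 and was 3.20-fold higher than in control space (log2 difference 1.68 ± 0.16 SE, limma adjusted p = 7.20e-06). Dlk1 had fusion means of 398 and 465 and was 3.03-fold higher (1.60 ± 0.20 SE, adjusted p = 0.000175). Both remained called without any 1 animal. Mest, with fusion means of 342 and 351, was 1.87-fold higher (0.90 ± 0.15 SE, adjusted p = 0.00343), as was Igf2r, with means of 54.3 and 50 (0.90 ± 0.16 SE, adjusted p = 0.00612). Neither Mest nor Igf2r was called when any 1 of the 4 animals was left out, with adjusted p-values between 0.0641 and 0.257 for Mest and between 0.0875 and 0.328 for Igf2r.

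Against the inter-joint space of the same GOF animals, Peg10 was the 1 gene of the 10 called, 1.80-fold higher in fusion (log2 difference 0.85 ± 0.16 SE, limma adjusted p = 0.0221), where 0.222% of all targets were called in either direction, 0.176% were called higher and 0.0465% lower. It was not called when any 1 of the 4 animals was left out (adjusted p between 0.137 and 0.881). Peg3 was at 0.83, Dlk1 at 0.74 and Grb10 at 0.64, with adjusted p-values of 0.226, 0.246 and 0.592. Between fusion and GOF cartilage limma called 0 of the 10, where 0.0103% of all targets were called, as did edgeR and DESeq2, with 1 gene at an unadjusted p below 0.05. Between fusion and GOF perichondrium limma called 0 of 10, where 0% of all targets were called, with 3 at an unadjusted p below 0.05, while edgeR called 1 and DESeq2 called 2. Dlk1 had higher means in fusion than in the cartilage of the same animals, 398 against 315 and 465 against 380, but the log2 difference of 0.33 did not pass.

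Fusion regions varied widely in Peg10 within an animal. The 9 regions of GOF replicate 1 ranged from 39.2 to 267 around a median of 107.04, and the 8 regions of replicate 2 from 38.7 to 201 around 125.6. Of these, 7 of 9 and 5 of 8 lay above the highest inter-joint space region of the same animal, and 2 of 9 and 3 of 8 lay below its lowest cartilage region, so the group spanned the values of space and of cartilage. Peg3 varied less, from 203 to 355 in replicate 1 and from 223 to 364 in replicate 2, and 8 of 9 and 8 of 8 fusion regions lay above the highest space region of the animal. The chondrocyte list summed to 2732 and 3241 in fusion, against 697 and 879 in the inter-joint space of the same animals. Its part in the difference of these genes was not tested.

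The 2 GOF animals differed from each other in some of the genes. Cdkn1c was higher in replicate 2 than in replicate 1 in all 3 joint region types that both genotypes have, with a mean ratio of 1.71, and its means in space were 371 and 215. Dlk1, Peg3 and Igf2 were also higher in replicate 2 in all 3, with mean ratios of 1.37, 1.31 and 1.27. In the control animals the ratio of replicate 2 to replicate 1 lay between 0.905 for Grb10 and 1.16 for Plagl1. GOF replicate 2 was also the animal with the lowest negative probe, and the part of this was not tested.

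The reference regions, 1 of each type per animal, are described without a test. In reference cartilage Peg10 had values of 263 and 266 in controls and 249 and 248 in GOF animals, above every mean of the joint region types, and the chondrocyte list summed to between 7823 and 10145. In reference mesenchyme Peg10 was at 62 and 72.3 in controls and 102.8 and 133.3 in GOF animals. Mest did not follow the cartilage markers there, since it was at 386 and 386 in controls and 463 and 407 in GOF animals, at the level of border-zone cartilage, while the chondrocyte list summed to between 118.7 and 233.9. Igf2 was lower in reference mesenchyme than in any joint type of the same animal, at 499 and 628 in controls and 668 and 908 in GOF animals. Plagl1 was at 38.1, 28.3 and 50.04 in control replicates 1 and 2 and GOF replicate 1, but at 146.8 in GOF replicate 2. The skeletal muscle list summed to between 674 and 1092 in these 4 regions, against between 31.4 and 60.6 elsewhere, and GOF replicate 2 had the lowest, 674. The mesenchyme region of GOF replicate 2 also stood apart in the erythroid list, which summed to 805 against between 66.9 and 102.3 in the other 3 animals, and in the Schwann cell and neuron list, at 60.7 against between 20.7 and 29.4. The part of these cell types in the values of the reference mesenchyme was not tested.

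Over all regions of the 4 animals the median Pearson correlation of log2(value + 1) among the 45 pairs of genes was 0.47, with 19 pairs above 0.5 and 11 below 0. After the mean of each animal and region type was subtracted the median was 0.35, with 6 pairs above 0.5 and 9 below 0. After total count and negative probe were also regressed out it was 0.34. Regions share animals, depth and scaling, so no p is given, and pairs of other targets were not summarised.

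Mest and Dlk1 had the closest pattern, with a correlation of 0.82 over all regions and 0.72 within animal and region type. Among the 9984 other targets with a median of at least 2 times the negative probe, each was the target most correlated with the other. The correlation held within each animal: control replicates 1 and 2 gave 0.81 and 0.71, GOF replicates 1 and 2 gave 0.69 and 0.62. Peg3 and Cdkn1c were at 0.79 and 0.65, and Peg10 and Mest at 0.82 and 0.58. Sgce had a negative correlation with all 9 other genes over all regions, between -0.31 and -0.10, and one between -0.13 and 0.05 within animal and region type. With its neighbour Peg10 it was at -0.29 and -0.09. Igf2 was close to 0 with Peg10, Mest, Grb10 and Igf2r over all regions, and its highest value within animal and region type was 0.50, with Cdkn1c.

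**Figure D5:**
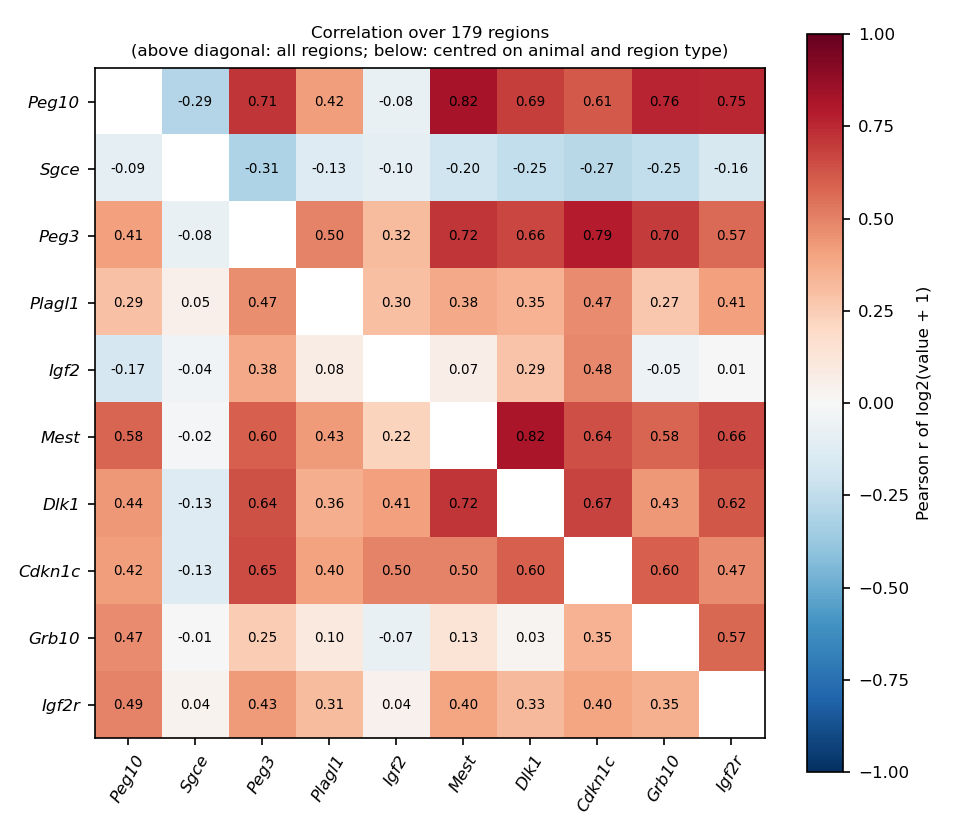
Pearson correlation of log2(value + 1) between each pair of genes over all regions, as colour and number, over all regions above the diagonal and after subtracting the mean of the animal and region type below it. Mest and Dlk1 reach 0.82 and 0.72, while Sgce is between -0.31 and 0.05 with every other gene.

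The 3 targets outside the list that were most like each gene were taken by correlation within animal and region type over all regions. For Peg10 they were Col2a1 (0.73), Col11a1 (0.73) and Hapln1 (0.72), which encode fibrillar collagens and a link protein of cartilage matrix. For Peg3 they were Acan (0.78), Sox9 (0.76) and Col9a2 (0.76), for Cdkn1c Hspg2 (0.76), Acan (0.75) and Col11a1 (0.74), and for Igf2r Col2a1 (0.60), Col9a2 (0.59) and Col11a1 (0.55). Mest and Dlk1 shared Cytl1 as the most similar target outside the list (0.71 and 0.68). Mest was followed by Gdf10 (0.69) and Nrk (0.67), and Dlk1 by Col9a2 (0.67) and Fgfr1 (0.64). Igf2 was most like Col6a2 (0.60), Sncb (0.58) and Osr2 (0.57). Grb10 and Plagl1 had lower values, with Susd5 (0.55) and Sorbs2 (0.56) as their closest, and the closest target of Sgce, Nsa2, reached 0.35.

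Other imprinted genes were not called by limma, in comparisons where few targets were called at all. Of a list of 59, 52 were measured, of which 30 had a median of at least 2 times the negative probe, and the 7 that were not measured were not analysed here. By limma, 0 of the 52 were called in each of the 13 tested comparisons. Between 0% and 1.3% of all targets were called in these, so 0 of 52 lies close to that share. An unadjusted p below 0.05 was found for between 0 and 3 of the 52, and for between 0.114% and 4.6% of all targets. EdgeR and DESeq2 each called between 0 and 4 of the 52 in a comparison. In control space against cartilage both called 4 of the 52, where they called 1032 and 1169 of all 19346 targets. Limma on joint regions only called 5 of the 52 there, where it called 1438 of all targets. The median log2 difference of the 52 in that comparison was 0.03, with 27 above 0 and 25 below. It was -0.89 for the 10 genes and 0.03 for all targets.

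All 27 genes of the IGF pathway list were measured. In control inter-joint space against cartilage limma called 1 of 27, Igfbp4, a binding protein that holds IGFs away from their receptors, and it was higher, where 1.3% of all targets were called in either direction and 0.755% higher. EdgeR called 4 and DESeq2 called 3 of the 27 there, and limma on joint regions only called 8. Over all 19346 targets these called 1032, 1169 and 1438. The means of Igfbp4 were 39.6 and 47.5 in the cartilage of control replicates 1 and 2, 100.4 and 113.8 in perichondrium and 149.6 and 171.4 in space. It was 3.72-fold higher in space than in cartilage (log2 difference 1.90 ± 0.25 SE, limma adjusted p = 0.000116) and 2.41-fold higher in perichondrium (1.27 ± 0.25 SE, adjusted p = 0.0333). In perichondrium it was the 1 gene of the 27 called by limma, where 0.093% of all targets were called higher, and edgeR and DESeq2 each called 1. In GOF inter-joint space against cartilage limma called 1 of 27, where 0.501% of all targets were called in either direction and 0.181% higher, edgeR called 3, DESeq2 called 2 and limma on joint regions only called 5. The gene called by limma was the IGF carrier Igfbp3, which was 5.91-fold higher (2.56 ± 0.37 SE, adjusted p = 0.00119), with means of 58.9 and 94.5 in space and 11.5 and 11.9 in cartilage. Igfbp3 was also higher in space in both controls, though not called, with means of 30.2 and 32.7 against 9.48 and 9.92 in cartilage. By limma, 0 of the 27 were called in each of the tested comparisons other than these 3, where between 0 and 4 had an unadjusted p below 0.05 and edgeR and DESeq2 called between 0 and 3, and the list's median log2 difference in control space against cartilage was 0.08, against 0.03 for all targets.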

How the data were processed

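RNA of knees from 4 embryonic mice was profiled by GeoMx with the Mouse Whole Transcriptome Atlas probes. The no-template control was left out. Per the file headers, the authors deposited a linear signal, in which the counts of a region were divided so that its upper quartile, taken across unfiltered targets, equals that of every other region. Steps between values gave whole counts for 99.98% of values within 0.01 of a count, and 4 targets were not whole in most regions. The submitters' processing notes list Seurat and mm10 without saying what either was used for, and the sources used here do not name a counting pipeline. Intervals cover the spread between animals, and barcoded reads are not all independent molecules.

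From these, a mean of log2(value + 1) was taken for every animal within every region type, so that each target had 22 means belonging to 11 groups. They were fitted by limma 3.58.1 in R 4.3.3 with the animal as a random block (consensus correlation 0.0258, residual degrees of freedom 11) and a trended prior. P-values were adjusted by Benjamini-Hochberg over all 19346 targets, and a call is an adjusted p below 0.05. No target was filtered out by its level, but the list itself was drawn up with earlier results of these data known. An average of several regions counts as much as the single reference regions, which share the same estimate of spread. The labels call the animals biological replicates. Group means are given as arithmetic means of region values, and differences on the log scale. The fit was tested on simulated data with known changes between the genotypes in inter-joint perichondrium. It called 17 of 100 targets changed 2-fold and 100 of 100 changed 4-fold, with 0 false calls. With joint regions only, 99 of 100 targets changed 2-fold were called, with 3 false calls. A gene that was not called may thus still differ. The simulation drew a separate spread for each animal and region type, with no effect shared over the region types of an animal. In the data some genes had such an effect, as Cdkn1c did in the GOF animals. Changes between region types were not simulated, so these calls and false calls need not hold for the real data.

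The members and gene lists were chosen with earlier results of these data known. All 10 members are named. Of the other imprinted and IGF pathway lists, up to 3 called genes with the largest difference per comparison could be named. The 3 targets most like a member were taken by correlation within animal and region type among 9985 targets with a median of at least 2 times the negative probe. Alternatives were pseudocounts of 0.1 and 5, joint regions only, a filter on low targets, medians over regions, TMM scaling, a replicate block, leaving out each animal, edgeR 4.0.16 and DESeq2 1.42.0 on recovered counts summed per animal and region type. Names and positions come from RefSeq tables of GRCm38.p6, in which all 10 members matched. Equal replicate numbers do not mark shared litters in the labels, and deviations of same-numbered animals from their group means correlated at 0.0318 to 0.0523 over targets, so the numbers were not taken as pairs.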

Additional observations from a re-analysis of the deposited data

Results flagged for a closer look

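Each of the 10 genes was checked by sign over 3 pairs of region types. In 3 cases both animals of a genotype moved one way between region types and both animals of the other genotype the opposite way. With so few animals such sign patterns can arise by chance, and their share over all targets was not counted. The cases of Igf2 share its perichondrium values. Only the genotype difference of Igf2 between perichondrium and cartilage was tested, and it did not pass. All are small, and each gene named here missed the test in both genotypes.

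Sgce was higher in inter-joint space than in inter-joint perichondrium in both control animals, with a mean log2 difference of 0.23, and lower in both GOF animals, with a mean of -0.021. Igf2 was lower in perichondrium than in border-zone cartilage in both controls, at -0.059, and higher in both GOF animals, at 0.085. Igf2 was higher in space than in perichondrium in both controls, at 0.027, and lower in both GOF animals, at -0.11.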

How the results depend on the processing

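Of the counts of called genes and medians recomputed under each alternative, 18 gave more calls, 22 gave fewer, 3 medians moved and the rest stayed within the limits set for the same outcome. Of 1690 single-gene values 1590 kept their side of the threshold and 49 changed sign, all of them not called, with a size of at most 0.36 on the log2 scale. With joint regions only, the count of the 10 genes called was 6 in place of 2 for control perichondrium against cartilage, 5 in place of 0 for control space against perichondrium, 6 in place of 2 for GOF space against cartilage, 4 in place of 1 for GOF perichondrium against cartilage, 7 in place of 1 for fusion against GOF space, 1 in place of 0 for fusion against GOF cartilage and 3 in place of 0 for fusion against GOF perichondrium. In the same order without the last but one, DESeq2 called 4, 2, 5, 2, 6 and 2. EdgeR called 1 in control space against perichondrium, 4 in GOF space against cartilage, 4 in fusion against GOF space and 1 in fusion against GOF perichondrium. The filter on low targets gave 4 in GOF space against cartilage. Joint regions only also gave 8 in place of 6 for control space against cartilage, and 6 in place of 4 for fusion against control space. It called 1438 and 1007 of all targets in these 2 comparisons. Leaving out each animal gave counts of 1 to 4 for control space against cartilage, 0 to 1 for control perichondrium against cartilage, 0 to 1 for GOF space against cartilage, 0 for GOF perichondrium against cartilage and for fusion against GOF space, and 2 for fusion against control space. The median genotype difference in space, -0.01, was above 0 in 8 of 13 alternatives, with 0.04 by edgeR and by DESeq2, 0.01 with TMM scaling and 0.0079 with medians over regions. Leaving out each animal moved it to between 0.00746 and 0.23 and the median correlation to between 0.30 and 0.36, and the correlation was 0.47 without centring.

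Counts over all targets moved further. For control space against cartilage limma called 252, joint regions only 1438, edgeR 1032 and DESeq2 1169. For fusion against GOF space these counts were 43, 885, 419 and 487, and for GOF space against cartilage 97, 1039, 549 and 654. Between 0.114% and 4.6% of all targets had an unadjusted limma p below 0.05. TMM scaling moved the median of all targets by at most 0.04.

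With the replicate block, 3 genes in place of 2 were called in GOF space against cartilage, Mest being added at an adjusted p of 0.0473, and it changed no other count among the 10. Regions held 55470 counts at the least, and Sgce, at a median of 4.20 times the negative probe, was the closest to background of the 10 genes.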
